A study of Mus musculus with 6 samples.

Results

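Eph receptors and ephrins form the contact-dependent signalling family that positions epithelial cells along the intestinal crypt, and 10 of its genes were followed in adenomas with and without the miR-34 microRNAs. The genes were chosen by name as members linked to crypt positioning: the receptors Ephb2, Ephb3, Ephb4, Epha1, Epha2, Epha4 and Epha7 and the ligands Efnb1, Efnb2 and Efna1. They are 10 of the 46078 genes counted and 10 of the 22 Eph and ephrin genes of the mouse genome annotation. RNA was sequenced from small-intestinal adenomas of 3 miR-34a/b/c-/-;ApcMin/+ mice and 3 miR-34a/b/c+/+;ApcMin/+ mice of the strain C57BL6/SV129, all killed at 18 weeks of age. Each library pooled 3 tumors of 1 mouse, so the mouse is the replicate. All 6 mice carried the ApcMin allele, a truncating mutation of the Wnt pathway regulator Apc, and no normal intestine was included. The comparison therefore covers adenomas that arose with and without miR-34a, miR-34b and miR-34c.

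Eph receptors are receptor tyrosine kinases that bind ephrins on the surface of a neighbouring cell, and both cells can receive a signal. EphA receptors bind mainly the GPI-anchored ephrin-A ligands, and EphB receptors bind mainly the transmembrane ephrin-B ligands. In the intestine β-catenin and TCF switch on Ephb2 and Ephb3 at the crypt base, while ephrin-B1 and ephrin-B2 are found toward the villus, and the opposed gradients keep proliferating and differentiated cells apart.

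The microRNAs removed in the knockout share their seed, bases 2 to 8 counted from the 5′ end. The mature sequences from RefSeq (GRCm38.p6) are printed 5′ to 3′ because the search for matches in the Eph and ephrin transcripts starts from them, with the seed in capitals. miR-34a-5p lies on chr4:150068473-150068494 (plus strand) and miR-34b-5p on chr9:51103610-51103632 (minus strand). The third microRNA removed is miR-34c.
mmu-miR-34a-5p: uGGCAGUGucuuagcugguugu
mmu-miR-34b-5p: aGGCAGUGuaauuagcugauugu

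A match to the seed was searched on the sense strand of the longest annotated 3′ UTR of each gene (GENCODE M21, mm10). The letters were CACTGCC, which pairs with the whole seed, or ACTGCCA, which pairs with bases 2 to 7 and is followed by an A, and the longest form, CACTGCCA, holds both. Of the 10 genes, 3 held at least 1 such match, against 19.8% of the 20711 protein-coding genes with an annotated 3′ UTR and 23.6% of the 16456 genes whose 3′ UTR was within the members' range of 281 to 7783 bases. Ephb2 held 3 matches in a 3′ UTR of 7783 bases, Efnb1 held 2 in 1464 bases and Epha4 held 1 in 3310 bases. The 6 matches are printed with their neighbouring bases on the strand of the mRNA, with the matching letters in capitals, since they are the letters complementary to the seed of the microRNAs removed.
Ephb2, chr4:136654515-136654541 (minus strand): gtcatcagcctcgACTGCCAcagagaa
Ephb2, chr4:136648452-136648478 (minus strand): ggagaggcaccaCACTGCCtttcctat
Ephb2, chr4:136648340-136648366 (minus strand): tctcatcccttcCACTGCCtcccaaaa
Epha4, chr1:77368324-77368350 (minus strand): ctccagccagcatACTGCCAttttact
Efnb1, chrX:99148686-99148712 (plus strand): cggctgctaacagACTGCCActcaact
Efnb1, chrX:99148764-99148790 (plus strand): cacccacctccaCACTGCCtcctggcc

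None of the 10 genes held the full CACTGCCA, which 4.94% of all 3′ UTRs held. Ephb2 and Epha4 also have a shorter annotated coding transcript. Its 3′ UTR has 1714 bases and 1 match in Ephb2, the first of those printed, and 594 bases and 0 matches in Epha4. Gene counts do not show which transcript was used. A match is a run of letters and not a tested site. Ephb3, Ephb4, Epha1, Epha2, Epha7, Efnb2 and Efna1 held 0 matches of these forms.

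Library totals were between 26375035 and 38354355 counts. The deleted genes Mir34a, Mir34b and Mir34c had 0 counts in each of the 6 libraries of both genotypes, so these counts do not check the genotype labels. Xist counts placed 1 male in each group, knockout 2 and wild-type 3. The libraries differed strongly within genotype. The first principal component, with 46.2% of the variance over tested genes, had scores of -38.4, 26.1 and -38.3 in knockout libraries 1, 2 and 3, against -2.2, 39.4 and 13.4 in wild-type libraries 1, 2 and 3. Knockout 2 thus lay among the wild-type libraries and apart from the other knockouts. The epithelial markers of the labelled tissue were high in every library, with Epcam, an epithelial adhesion molecule, at 1790 to 2720 CPM (counts scaled to a common library total with factors from TMM, the trimmed mean of M values). Mitochondrial genes took 2.89%, 4.18% and 2.31% of the counts in knockout libraries, against 2.98%, 4.0% and 3.08% in wild-type libraries.

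None of the 10 Eph and ephrin genes passed the test for a difference between genotypes. All 10 passed the filter on low counts. The edgeR quasi-likelihood test with Benjamini-Hochberg adjustment over 17254 genes called 0 of the 10 at an adjusted p under 0.05, beside 16 genes or 0.0927% of all genes tested. DESeq2 and limma-voom also called 0 of the 10, beside 0.638% and 0.122% of all genes. At an unadjusted p under 0.05 the 3 tools again gave 0 of the 10, where edgeR gave 5.85% of all genes. The 3 knockout libraries lay all above the 3 wild-type libraries for 0 of the 10 genes and all below for 0 of the 10, against 5.86% and 5.34% of all genes. The estimated log2 fold change, knockout over wild-type, was positive for 8 of the 10 genes and negative for 2, with a median of 0.12 beside 0.01 over all genes tested. These estimates ran from -0.13 to 0.35.

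**Figure D1:**
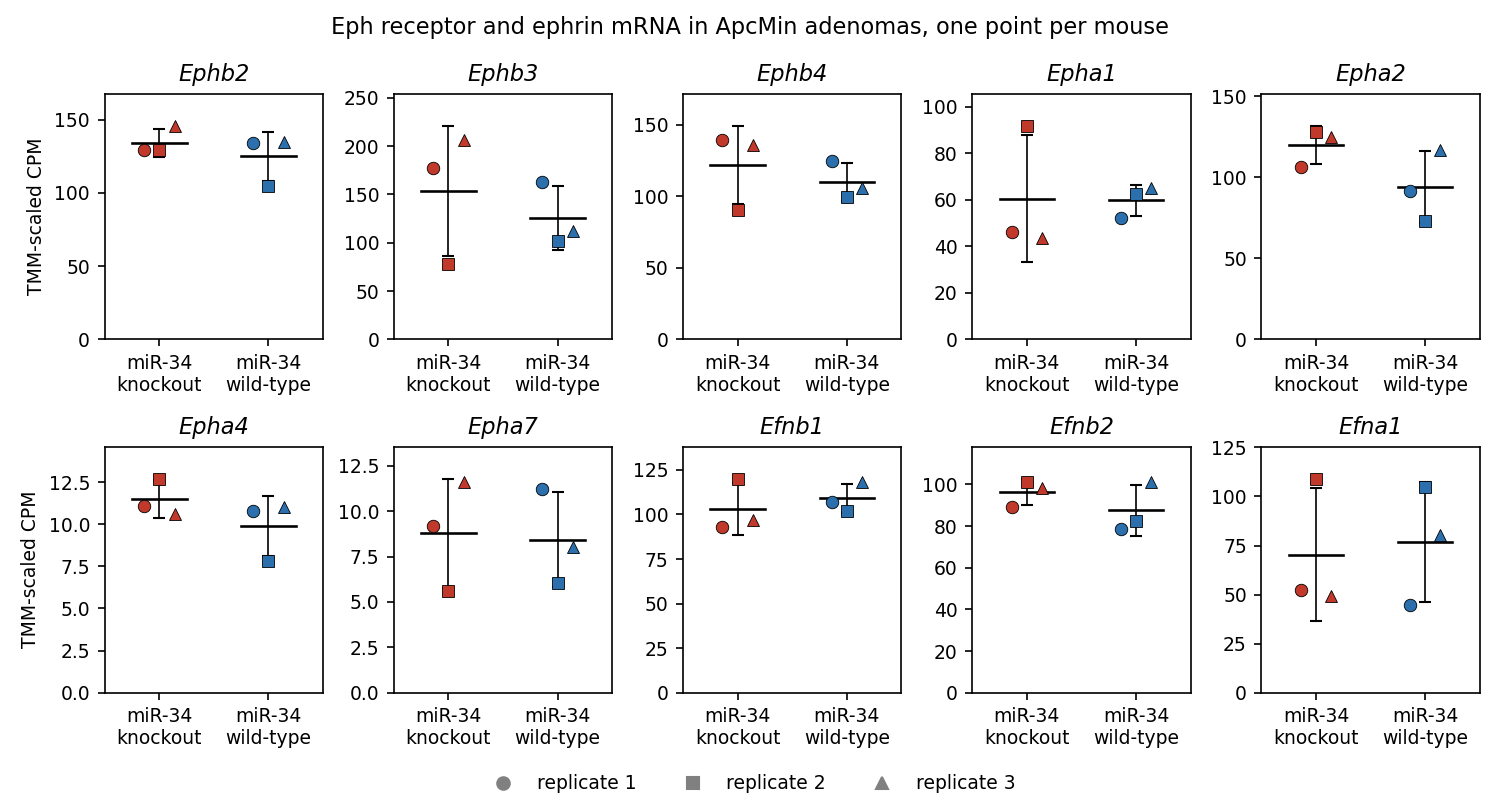
TMM-scaled CPM of the 10 genes, each on a linear axis from 0, in 3 knockout and 3 wild-type mice; each point is 1 mouse, marked by its replicate number, the horizontal line is the group mean and the bar is 1 SD. In every panel the knockout and wild-type points overlap, and the spread is widest for Ephb3 (77.7 to 206 CPM) and Efna1 (44.5 to 109 CPM).

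**Figure D2:**
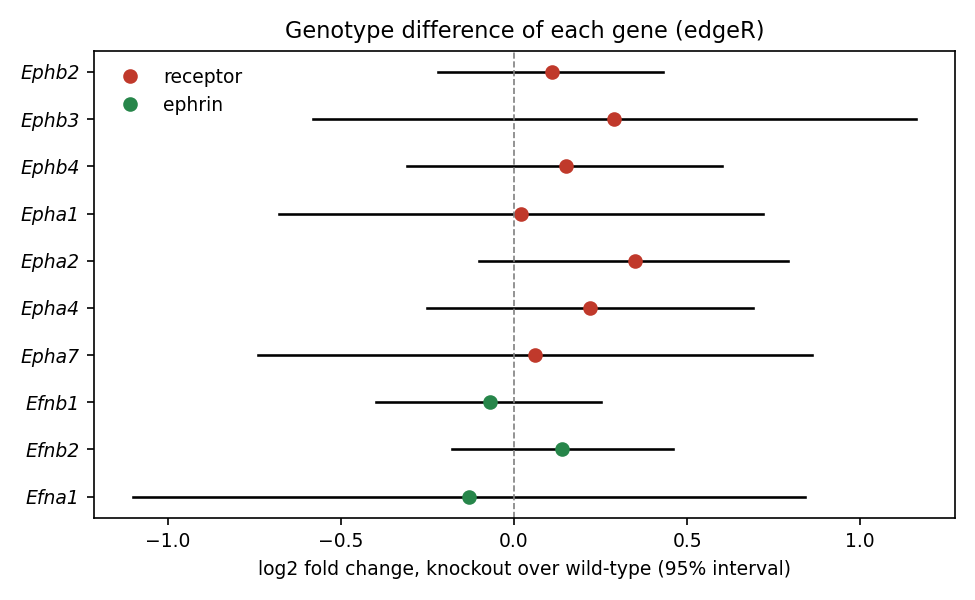
Log2 fold change of each gene, knockout over wild-type, from the edgeR fit with its 95% interval, receptors in red and ephrins in green. All 10 intervals cross 0, and they are narrowest for Ephb2, Efnb1 and Efnb2 and widest for Efna1 (-1.10 to 0.84).

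Ephb2, the receptor of crypt progenitors and a classical β-catenin target (ENSMUSG00000028664, mm10 chr4:136647539-136835988), was among the steadiest of the genes. Its level was 129, 129 and 146 CPM in knockout adenomas, against 134, 105 and 135 CPM in wild-type adenomas. Only wild-type 2 stood lower than the rest, and the highest library was 1.38 times the lowest. The means were 134 ± 9.71 CPM in knockout mice and 125 ± 16.8 CPM in wild-type mice (SD, n = 3 each). The log2 fold change was 0.11 (SE 0.14, edgeR adjusted p = 0.87), and it was -0.0018 without wild-type 2. The 95% interval of the fold was 0.858 to 1.35 for this gene, which carries 3 seed matches in its longest 3′ UTR.

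Ephb3, the receptor that places Paneth cells at the crypt base (ENSMUSG00000005958, chr16:21204755-21223305), had the widest range of the 10 genes. It had 177, 77.7 and 206 CPM in knockout adenomas, against 163, 102 and 112 CPM in wild-type adenomas. Knockout 1, knockout 3 and wild-type 1 were high and the other 3 libraries low, so that both the highest and the lowest value belonged to knockout mice, 2.65-fold apart. The means were 154 ± 67.2 CPM in knockout mice and 126 ± 33.0 CPM in wild-type mice (SD, n = 3 each). Its log2 fold change was 0.29 (SE 0.37, edgeR adjusted p = 0.869). Leaving out knockout 2 gave 0.61 (edgeR adjusted p = 0.221) and leaving out knockout 3 gave 0.0063. The 95% interval of the fold was wide, 0.667 to 2.23.

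Ephb4, best known as the receptor of venous endothelium and also present in intestinal epithelium (ENSMUSG00000029710, chr5:137350109-137378669), varied in the same direction as Ephb3 but less. Its level was 139, 90.4 and 136 CPM in knockout adenomas, against 125, 99.8 and 106 CPM in wild-type adenomas. The same 3 libraries were high, knockout 2 was again the lowest, and the groups overlapped. The estimate on the log2 scale was 0.15 (SE 0.19, edgeR adjusted p = 0.869), and it ranged from 0.035 without knockout 1 to 0.33 without knockout 2. The gene shares 33 of its 4640 exon bases with Zan of the other strand, and over all libraries Zan had 1631 counts beside 23342 for Ephb4. Whether reads were counted by strand is unstated in the sources at hand, so a small part of these counts is uncertain.

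Epha1, an epithelial EphA receptor (ENSMUSG00000029859, chr6:42358487-42373268), was the gene whose group means were closest. It had 46.3, 92.0 and 43.6 CPM in knockout adenomas, against 52.1, 62.4 and 65.0 CPM in wild-type adenomas. Knockout 2 was the highest library of all and knockouts 1 and 3 the lowest, with every wild-type mouse between them. The means were 60.6 ± 27.2 CPM in knockout mice and 59.8 ± 6.81 CPM in wild-type mice (SD, n = 3 each). Knockout over wild-type, the log2 fold change was 0.02 (SE 0.29, edgeR adjusted p = 0.993). It was -0.41 without knockout 2 (edgeR adjusted p = 0.203) and -0.08 without wild-type 1. Epha1 shares 236 of its 3928 exon bases with Zyx on the opposite strand, and Zyx had 22924 counts beside 11898 for Epha1, so the level of Epha1 is uncertain where strand was not used.

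Epha2, a receptor of many epithelia and carcinomas (ENSMUSG00000006445, chr4:141301240-141329384), had the smallest p of the 10 genes. Its level was 106, 128 and 125 CPM in knockout adenomas, against 91.6, 73.2 and 117 CPM in wild-type adenomas. Only wild-type 3 reached the knockout range, where it exceeded knockout 1. The means were 120 ± 11.8 CPM in knockout mice and 94.1 ± 22.2 CPM in wild-type mice (SD, n = 3 each). The log2 fold change was 0.35 (SE 0.19, edgeR unadjusted p = 0.106, adjusted p = 0.801). The 95% interval of the fold was 0.936 to 1.73. Without wild-type 2 the log2 fold change was 0.20, and without wild-type 3 it was 0.54.

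Epha4, a receptor studied mostly in axon guidance (ENSMUSG00000026235, chr1:77367185-77515088), was steady apart from 1 mouse. It had 11.1, 12.7 and 10.6 CPM in knockout adenomas, against 10.8, 7.83 and 11.0 CPM in wild-type adenomas. Wild-type 2 was again below the rest, and the other 5 libraries lay close together. Its log2 fold change was 0.22 (SE 0.20, edgeR adjusted p = 0.827), and it was 0.075 without wild-type 2. When libraries were scaled by their totals alone, the knockout libraries of Epha2 (114, 117 and 136 CPM, against 94.1, 69.5 and 112 CPM in wild-type) and of Epha4 (11.9, 11.6 and 11.6 CPM, against 11.1, 7.43 and 10.5 CPM in wild-type) lay all above the wild-type ones. Under that scaling 5.37% of all genes did so, and neither gene was called by edgeR (adjusted p = 0.85 for Epha2 and 0.857 for Epha4).

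Epha7, another receptor of the EphA class (ENSMUSG00000028289, chr4:28813131-28967499), followed the grouping of Ephb3. Its level was 9.16, 5.61 and 11.6 CPM in knockout adenomas, against 11.2, 6.04 and 8.0 CPM in wild-type adenomas. Knockouts 1 and 3 and wild-type 1 were high and knockout 2 was the lowest. The estimate on the log2 scale was 0.06 (SE 0.34, edgeR adjusted p = 0.972). It was -0.20 without knockout 3 and -0.13 without wild-type 2.

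Efnb1, the transmembrane ligand of EphB2 and EphB3 (ENSMUSG00000031217, chrX:99136130-99148991), differed little among the mice. It had 93.1, 120 and 96.7 CPM in knockout adenomas, against 107, 102 and 118 CPM in wild-type adenomas. The males, knockout 2 and wild-type 3, were the highest, and the whole range spanned 1.29-fold. The means were 103 ± 14.6 CPM in knockout mice and 109 ± 8.06 CPM in wild-type mice (SD, n = 3 each). Knockout over wild-type, the log2 fold change was -0.07 (SE 0.14, edgeR adjusted p = 0.911). It ranged from -0.19 without knockout 2 to -0.0099 without knockout 1. The 95% interval of the fold was 0.758 to 1.19 for this gene, which carries 2 seed matches.

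Efnb2, the ligand of EphB4 in arterial endothelium and a villus ligand in the intestine (ENSMUSG00000001300, chr8:8617434-8660773), was as steady as Efnb1. It had 89.1, 101 and 98.3 CPM in knockout adenomas, against 78.4, 82.6 and 101 CPM in wild-type adenomas. Wild-type 3 matched the highest knockout, and wild-type 1 and 2 lay below every knockout. The log2 fold change was 0.14 (SE 0.14, edgeR adjusted p = 0.835), and it ranged from 0.055 without wild-type 1 to 0.26 without wild-type 3.

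Efna1, the GPI-anchored ligand of EphA receptors such as EphA2 (ENSMUSG00000027954, chr3:89271733-89281142), also varied widely, by 2.46-fold. Its level was 52.3, 109 and 49.2 CPM in knockout adenomas, against 44.5, 105 and 80.6 CPM in wild-type adenomas. Knockout 2 and wild-type 2 were high, wild-type 3 was intermediate, and knockouts 1 and 3 and wild-type 1 were low, the reverse of the grouping in Ephb3. The means were 70.3 ± 33.9 CPM in knockout mice and 76.9 ± 30.7 CPM in wild-type mice (SD, n = 3 each). Its log2 fold change was -0.13 (SE 0.41, edgeR adjusted p = 0.951). Its sign depended on single mice, with 0.04 without knockout 1, 0.07 without knockout 3 and 0.17 without wild-type 2.

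For every gene except Epha2 the range within each genotype was wider than the gap between the group means. For Epha2 the knockout range was narrower than that gap. Ephb3, Ephb4 and Epha7 were each higher in knockout 1, knockout 3 and wild-type 1 than in knockout 2, wild-type 2 and wild-type 3. Epha1 and Efna1 had their highest value in knockout 2 and were low in knockouts 1 and 3. Ephb2, Efnb1 and Efnb2 spanned 1.38-fold or less. These groupings were read from the values and carry no test.

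The sum of Wnt targets moved with the grouping of Ephb3. Among sums for differentiated cells, that for goblet cells stood in the library order of Epha1. The enterocyte sum followed Epha1 only in part, and both sums followed Efna1 only in part. The summed level of 16 textbook Wnt targets, all 16 detected, was 2785, 1071 and 2796 CPM in knockout adenomas, against 2259, 1545 and 1750 CPM in wild-type adenomas. The 6 libraries stood in the same order for this sum as for Ephb3. Among its genes Nkd1, a feedback inhibitor of the pathway, had 484, 95.9 and 510 CPM in knockout adenomas, against 394, 258 and 271 CPM in wild-type adenomas, and the stem cell receptor Lgr5 had 103, 20.8 and 141 CPM in knockout adenomas, against 88.3, 37.7 and 80.4 CPM in wild-type adenomas. Both were lowest in knockout 2, one of the libraries with the highest mitochondrial share. Axin2, Notum, Sox9 and Wif1 of the same list were also lowest there. Ascl2 and Cd44 were not: Ascl2 was lowest in wild-type 3, at 7.95 CPM against 12.0 CPM in knockout 2. Cd44 was lowest in wild-type 2, at 202 CPM against 205 CPM in knockout 2. The summed level of 10 crypt base stem cell markers, 4 of them shared with the Wnt list, was 1880, 1187 and 2117 CPM in knockout adenomas, against 1419, 1128 and 1150 CPM in wild-type adenomas. A single gene, Prom1, made up 45.4% of this sum. The sum of 9 Paneth cell markers was 1729, 1071 and 2455 CPM in knockout adenomas, against 981, 827 and 1117 CPM in wild-type adenomas, with knockout 2 inside the wild-type range. Lyz1 made up 42.9% of the Paneth cell sum. Of the 9 genes 3 had all knockouts above all wild-types, where 5.86% of all genes did, and 0 had all knockouts below.

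The sum of 10 enterocyte markers was 7383, 17772 and 9257 CPM in knockout adenomas, against 9937, 10194 and 15359 CPM in wild-type adenomas. The sum of 7 goblet cell markers was 5557, 8774 and 4599 CPM in knockout adenomas, against 6574, 7137 and 8249 CPM in wild-type adenomas, in the same order of libraries as Epha1. Fcgbp made up 44.5% of the goblet cell sum. The enterocyte and goblet cell sums were both highest in knockout 2, where Epha1 and Efna1 were also highest and Ephb3 lowest. The enterocyte sum did not follow Efna1 in wild-type 2. There Efna1 had 105 CPM against 44.5 CPM in wild-type 1, while the enterocyte sums of these libraries were close. In bulk RNA fewer cells of a type and less RNA per cell cannot be told apart, and the part of these cell types in the levels of the Eph and ephrin genes was not tested. Ephb4 and Efnb2 are also made by vessels. The sum of 10 endothelial markers was 452, 390 and 539 CPM in knockout adenomas, against 352, 295 and 320 CPM in wild-type adenomas, all knockouts above all wild-types. Of those 10 genes 4 had all knockouts above all wild-types, where 5.86% of all genes did. The sum of 10 fibroblast markers ranged from 850 to 3000 CPM in knockout adenomas and from 539 to 1518 CPM in wild-type adenomas, and that of 8 smooth muscle markers from 772 to 843 CPM in knockout adenomas and from 385 to 741 CPM in wild-type adenomas. Of the 8 smooth muscle genes 5 had all knockouts above all wild-types. The share of these cells in the levels of Ephb4 and Efnb2 was not tested. The sum of 7 B and plasma cell markers was 1407, 4230 and 4024 CPM in knockout adenomas, against 4975, 7419 and 6687 CPM in wild-type adenomas, all knockouts below all wild-types. Igha, an immunoglobulin heavy chain gene, made up 82.1% of this sum, and 4 of the 7 genes had all knockouts below all wild-types, where 5.34% of all genes did. The sum of 6 enteric glia markers also lay lower in every knockout, at 5.60, 5.32 and 5.18 CPM in knockout adenomas, against 7.08, 9.06 and 6.13 CPM in wild-type adenomas. This sum was low, and only 1 of its 6 genes had all knockouts below all wild-types. The part of these cells in the levels was not tested either. No list had a gene at 0 in all libraries.

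**Figure D3:**
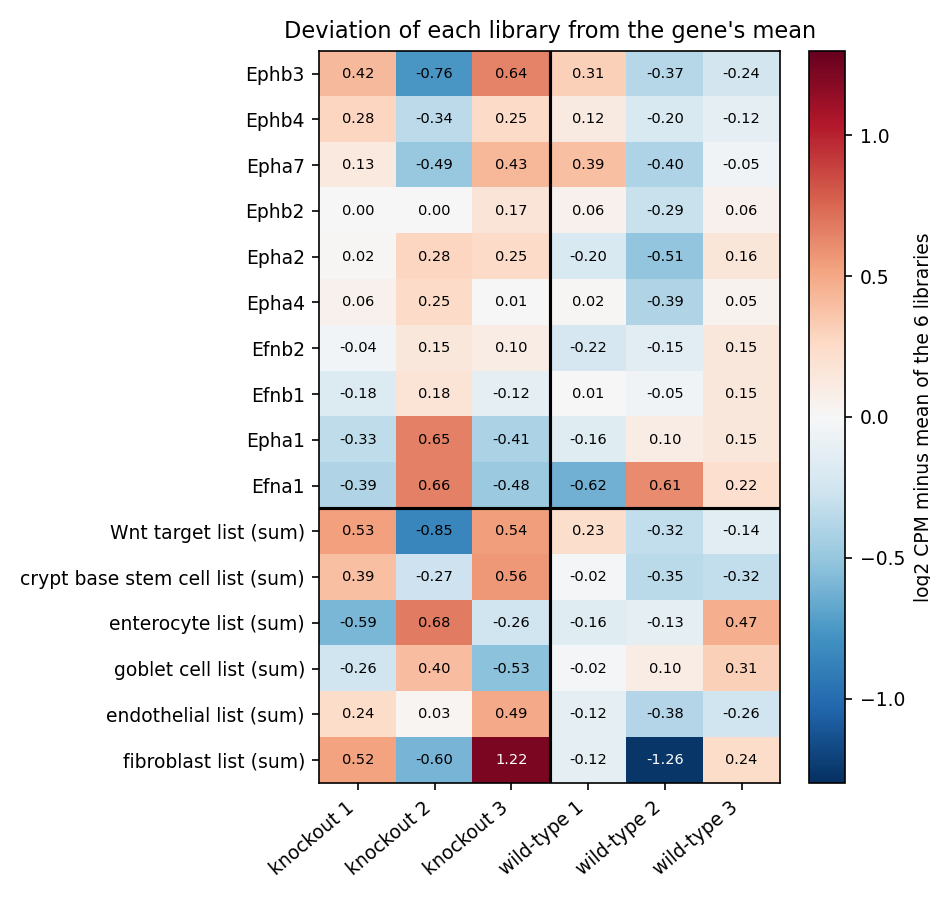
Deviation of each library from the mean of the 6 libraries, in log2 CPM (pseudocount of 1 CPM), for the 10 genes and, under the horizontal line, for 6 summed marker lists, with 3 knockout columns left of 3 wild-type columns and each deviation printed in its cell. Ephb3, Ephb4, Epha7 and the Wnt target sum are above their mean in knockout 1, knockout 3 and wild-type 1 and below it in the other 3 libraries, while Epha1, Efna1 and the enterocyte sum are highest in knockout 2.

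Likeness between genes was measured as the root mean square difference of log2 CPM, each gene centred on its mean, over the 6 libraries. Epha7 was the nearest member to Ephb3, at 0.202, and to Ephb4, at 0.183, where Ephb3 itself varied by 0.49 around its mean. Epha4 was nearest to Ephb2, at 0.133, and to Epha2, at 0.151. Efnb1 was nearest to Epha1, at 0.249, Efnb2 was nearest to Efnb1, at 0.151, and Epha1 was nearest to Efna1, at 0.286. Efnb1 itself varied by only 0.134 around its mean and Ephb2 by 0.142. Their nearest members were thus about as far from them as a gene that did not vary. Among 9839 protein-coding genes with a mean of at least 10 CPM outside the family, those nearest to Ephb2 were Dnajc1 (0.0218), Maml1 (0.0249) and Rbm27 (0.0305). Those nearest to Efnb1 were Wdr1 (0.0155), Rab1a (0.0248) and Zfyve1 (0.0255). A gene that did not vary at all would lie at 0.142 from Ephb2 and at 0.134 from Efnb1, so the named genes lay nearer than that. They are the nearest of 9839 genes over only 6 libraries, and their likeness was not tested.

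Levels of different genes were compared per exon length, as TPM, counts per base of exon scaled to a common library total, without TMM factors. Efna1 was the highest, with a mean over the 6 libraries of 116 TPM and a range of 75.3 to 162 TPM. Efnb1 followed at 91.3 TPM, Ephb4 at 76.3 TPM, Epha2 at 69.2 TPM, Ephb3 at 65.3 TPM, Epha1 at 44.9 TPM, Efnb2 at 40.2 TPM and Ephb2 at 31.1 TPM, and the ranges of neighbours in this order overlapped. Below a gap came Epha4 at 3.99 TPM (2.44 to 4.65 TPM) and Epha7 at 2.68 TPM (1.53 to 4.12 TPM), whose ranges overlapped each other and did not reach that of Ephb2 (21.0 to 40.7 TPM). The adenomas thus carried 5 of the 7 receptors and all 3 ligands at 21.0 TPM or more in every library. The low place of Ephb2 depends in part on the transcript assumed. With its exon union of 12608 bases it stood at 31.1 TPM, and with its shortest coding transcript of 4804 bases at 81.6 TPM. With their shortest coding transcripts Efna1 stood at 143 TPM, Ephb3 at 104, Efnb1 at 96.7, Ephb4 at 94.6 and Epha2 at 82.7 TPM. Efnb2 stood at 57.5, Epha1 at 53.9, Epha7 at 9.2 and Epha4 at 8.9 TPM. On this common footing Ephb2 passed only Efnb2 and Epha1.

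**Figure D4:**
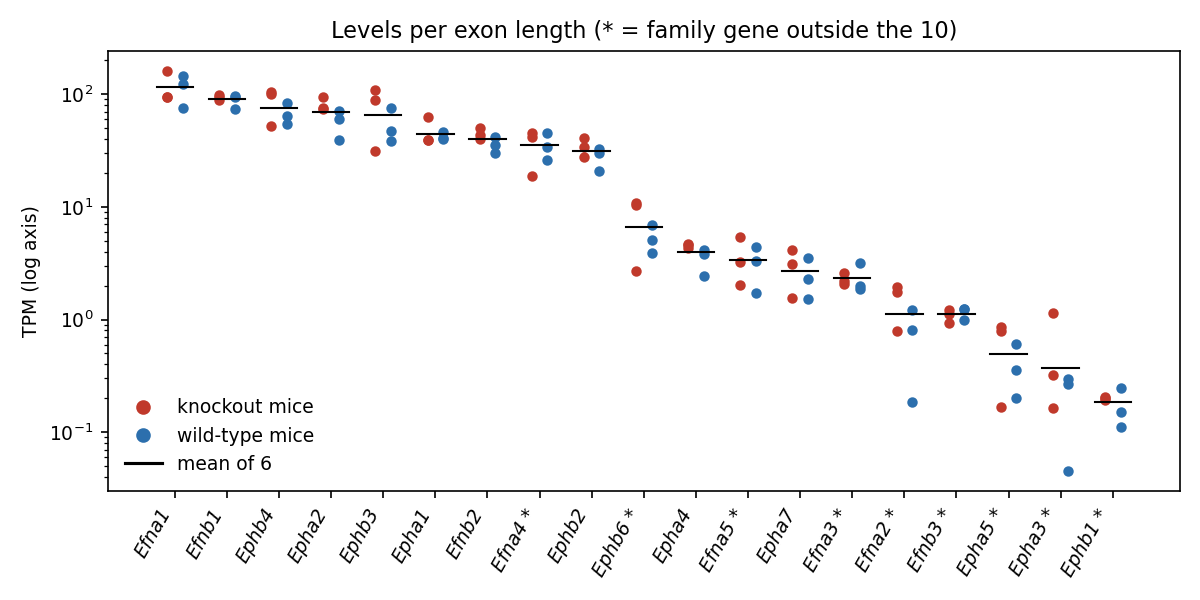
Levels of Eph and ephrin genes in TPM on a log axis, ordered by their mean over 6 libraries (line), with 3 knockout mice in red left of 3 wild-type mice in blue; family genes outside the 10 have an asterisk, and genes with a mean of 0.1 TPM or less are left out. Efna1 to Ephb2 lie between 18.8 and 162 TPM, and Epha4 and Epha7 lie under 5 TPM in every library.

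Summed over the whole family, the balance of receptor and ligand levels varied among mice and overlapped between genotypes. The 14 receptors summed to 358, 259 and 408 TPM in knockout adenomas, against 310, 201 and 270 TPM in wild-type adenomas. The 8 ephrins summed to 285, 321 and 294 TPM in knockout adenomas, against 259, 290 and 296 TPM in wild-type adenomas. Receptors exceeded ligands in knockouts 1 and 3 and wild-type 1, with ratios of 1.26, 0.807 and 1.39 in knockout adenomas, against 1.20, 0.696 and 0.913 in wild-type adenomas. The ratio of Ephb3 to Efnb1, a crypt base receptor over its ligand, was 0.99, 0.337 and 1.11 in knockout adenomas, against 0.798, 0.522 and 0.494 in wild-type adenomas. The same ratio for Ephb2 was 0.379, 0.294 and 0.412 in knockout adenomas, against 0.345, 0.284 and 0.314 in wild-type adenomas. Both ratios overlapped between genotypes. All of these ratios rest on exon-union lengths, so their size depends on the transcript assumed. Which libraries have receptors above ligands can depend on it too. The 10 genes held 89.3% to 95.2% of the summed TPM of the 22 family genes.

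The other 12 family genes were low apart from Efna4, an ephrin-A ligand, at 35.3 TPM. The count filter kept 9 of them, and edgeR called 0 of the 9, with 5 estimates positive, 4 negative and a median log2 fold change of 0.02. Epha3 had the smallest p and the highest estimate, with 0.846, 0.528 and 2.81 CPM in knockout adenomas, against 0.746, 0.157 and 0.924 CPM in wild-type adenomas (log2 fold change 1.20, SE 0.80, edgeR adjusted p = 0.808). Knockout 3 alone stood above the rest. Efnb3, an ephrin-B ligand, had the lowest estimate, with 1.16, 1.09 and 1.01 CPM in knockout adenomas, against 1.03, 1.57 and 1.40 CPM in wild-type adenomas (log2 fold change -0.30, SE 0.29, edgeR adjusted p = 0.837). Epha6 had 0 counts in all 6 libraries, which allows up to 0.114 CPM in the shallowest, Epha8 had 0 to 5 and Epha10 had 1 to 5. Ephb6, a receptor that lacks kinase activity, had 12.2, 3.76 and 11.3 CPM in knockout adenomas, against 8.45, 5.92 and 6.80 CPM in wild-type adenomas, in the same order of libraries as Ephb4.

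For signalling around the receptors and ligands, a list of 38 genes was examined, and all 38 passed the filter. It held adaptor, exchange factor, kinase and GTPase genes and others, among them Grip1, Chn2, Adam10 and Cdh1. The edgeR test called 0 of the 38, and 2 had an unadjusted p under 0.05, where 5.85% of all genes did. The estimates were positive for 21 and negative for 17, with a median log2 fold change of 0.03. Abl2, a kinase that acts on the cytoskeleton downstream of Eph receptors, had the smallest p. It had 58.3, 46.9 and 60.2 CPM in knockout adenomas, against 47.3, 37.1 and 43.1 CPM in wild-type adenomas (log2 fold change 0.37, SE 0.15, edgeR adjusted p = 0.793). Knockout 2 lay just under wild-type 1, so the groups overlapped. Grip1, a PDZ protein that binds ephrin-B tails, had the highest estimate, with 1.87, 0.66 and 1.39 CPM in knockout adenomas, against 0.808, 0.409 and 0.532 CPM in wild-type adenomas (log2 fold change 1.16, SE 0.47, edgeR adjusted p = 0.793). Chn2, a Rac GTPase-activating protein related to the EphA4 effector α-chimaerin, had the lowest, at 37.7, 47.8 and 32.9 CPM in knockout adenomas, against 44.8, 51.7 and 49.5 CPM in wild-type adenomas (log2 fold change -0.30, SE 0.16, edgeR adjusted p = 0.793). For Grip1 and Chn2 knockout 2 lay inside the wild-type range.

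Positions and promoters of the genes were compared with the deleted loci and with TCF letters. Ephb2, Epha2 and Epha7 lie on chromosome 4 with Mir34a, at 13.23, 8.74 and 121.1 Mb from it, and no member lies on chromosome 9 with Mir34b and Mir34c. In the 12 RefSeq promoter windows of the 10 genes (250 bases before to 50 after a start, GRCm38.p6), the letters CTTTGAT or CTTTGAA were searched on either strand, and 1 window held them, that of Epha2. That is 8.33% of the 12 windows, against 8.65% of all 32851 windows. Neither Ephb2 nor Ephb3 held these letters in its window, which says nothing of binding elsewhere.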

How the data were processed

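RNA-seq of 6 adenoma libraries was analysed, 3 per genotype, and the mouse was the replicate per the design text. The authors deposited raw counts for each Ensembl gene, 1 table per library. The submitters' processing notes name TopHat2 2.1.0, HTSeq 0.6.1 and mm10. The sources used here do not state the strand setting, the annotation release or the treatment of multiply aligned reads. They bear on genes that overlap others, so Epha1 and Ephb4 are given as uncertain.

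Symbols were found for 45143 of 46078 genes in GENCODE M21. Genes were filtered with filterByExpr, scaled by TMM (factors 0.914 to 1.09) and compared with edgeR 4.0.16 (R 4.3.3) by the robust quasi-likelihood F-test, with Benjamini-Hochberg adjustment over 17254 genes at 0.05. The fit's common biological coefficient of variation came to 0.293. SE is the log2 fold change over the square root of F. TPM used the union of exons and no TMM factors, so genotypes were compared in CPM. Log2 CPM for deviations and likeness used a pseudocount of 1. A count of 0 allows up to 3 counts, or 0.0782 to 0.114 CPM, for counting error only. The script was tested on simulated counts.

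All 10 members were named, and in the other lists the genes with the smallest p, highest and lowest estimate; Ephb6, Efna4, Nkd1, Lgr5, Epcam and the untested genes were added after their values were seen. Members and lists were chosen with earlier results of these data known. Alternatives were DESeq2 1.42.0 and its size factors, library size alone, other count filters, limma-voom (limma 3.58.1), fitting without the robust option, replicate number as a block, sex as a term, leaving out each mouse, an adjusted p of 0.1, another transcript length and other seed forms. A fit on the females was added after seeing the data.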

Additional observations from a re-analysis of the deposited data

How the results depend on the processing

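No member was called under any of 16 settings each (lowest edgeR, DESeq2 or limma-voom adjusted p 0.203), and 12 of 160 member estimates changed sign. The genes called over the whole table were 16, against 110 with DESeq2, 77 in females only (a fit added after seeing the data) and 9 to 41 with one mouse left out (9 without knockout 1, 10 without knockout 3, 41 without knockout 2, 29 without wild-type 3). The Epha1 log2 fold change of 0.02 became -0.0634 with limma-voom, -0.0633 with the replicate block, -0.0667 with a sex term and -0.349 in females only. With one mouse left out it ranged from -0.412 to 0.203, that of Ephb2 from -0.0018 to 0.167, that of Epha7 from -0.20 to 0.31 and that of Efna1 from -0.597 to 0.167. The causes were not tested, except that fewer mice enter these last fits. Efnb1 stood at 76.7 TPM by its longest transcript, a length under which 6 of 10 members kept their rank. With CACTGCCA required, 0 members had a seed match, and with ACTGCC alone 4 did.

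Replicate numbers were not taken as pairing the mice, since the design text names no pairing. Deviations of same-numbered libraries correlated at 0.289, 0.324 and 0.086. As a weak hint from the data, 5 of 6 libraries correlated best with their own number. These 6 comparisons share the same correlations and are not independent. The exception was knockout 3, at 0.266 with wild-type 1 against 0.086 with wild-type 3. The replicate block gave 14 genes called and 0 members. With 3 mice a group the 95% interval of the fold, knockout over wild-type, was 0.667 to 2.23 for Ephb3 and 0.467 to 1.79 for Efna1, against 0.758 to 1.19 for Efnb1. Each of these 3 genes had at least 1431 counts in every library.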
